A study of Mus musculus with 4 samples.

Results

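The genes described here belong to carrier families known mainly for moving amino acids and monocarboxylates across cell membranes. Not every member carries such cargo: Slc6a8 carries creatine, Slc43a3 purine nucleobases, and the SLC3 members are heavy chains of other carriers. They were taken by symbol as the members of the solute carrier families SLC1, SLC3, SLC6, SLC7, SLC16, SLC38 and SLC43, with 1 SLC7 gene set aside. The array measured 66 such genes of 18193 genes with a named probe set. The SLC6 family gave 18 of them, SLC7 gave 14, SLC16 gave 13, SLC38 gave 9, SLC1 gave 7, SLC43 gave 3 and SLC3 gave 2. Together the 66 genes had 135 probe sets, and the one with the highest mean over the arrays stood for its gene.

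Values came from tumor cell lines 8534 and 8542, each grown from a primary mammary tumor of a different female MMTV-tTA/TOP-ICN1 mouse (strain FVB/N;B6). In this model the mammary tumor virus promoter directs the tetracycline transactivator to mammary epithelium, and the transactivator switches on human ICN1, the active intracellular part of NOTCH1. The untreated cells keep ICN1 on, and cells given 2 µg/ml doxycycline for 24 hours have it switched off. Both groups carry the same transgenes. No array held doxycycline-treated cells without them, so an effect of the drug itself cannot be told apart from the loss of ICN1. There was 1 array for each line and condition, 4 in all, so that the line was the only replicate (n = 2 lines), each line stands for 1 tumor, and the number of arrays limits the precision of every value. Values are MAS5 signals in arbitrary units, deposited as log2, with a median probe set between 29.1 and 30.5 units on each array. Differences were tested with limma, a linear model that held line and treatment as its terms, and its p values were adjusted over the 33778 probe sets with enough signal. Signals under 5.52 units, the 20th percentile of all values, are read as lying under the floor, and folds that rest on them are uncertain.

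Cells take up amino acids through carriers that work in different ways. The sodium-coupled carriers of SLC1, SLC6 and SLC38 can concentrate their cargo inside the cell, whereas most SLC7 carriers exchange one amino acid for another and reach the cell surface only with a heavy chain from SLC3. The best-known SLC16 carriers move lactate and pyruvate together with a proton. The mammary gland is known for heavy amino acid uptake during lactation, and tumor cells are known for their use of glutamine and their release of lactate.

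The switch itself could be read from known NOTCH target genes on the same arrays. Hey1, a transcriptional repressor, had fallen 11.8-fold in cells of line 8534 and 7.55-fold in those of line 8542 (adjusted p = 0.000283 by limma), and Dtx1 and Myc also fell. Hes1 was 1.74-fold and 1.32-fold lower and did not pass (limma adjusted p = 0.0579). The signals of the luminal markers Krt8, Krt18, Krt19, Epcam and Cdh1 summed to 19023 units without and 22506 units with doxycycline in line 8534, against 16165 and 16378 units in line 8542; Krt8 and Krt18 rose and Krt19 fell (limma adjusted p = 0.0295, 0.0163 and 0.00302). The 4 basal markers summed to 4451 and 7504 units in line 8534 but to 188 and 236 units in line 8542. Krt14 and Acta2 make up most of these sums and were higher in line 8534 on both arrays, whereas Krt5 with doxycycline and Trp63 without it were slightly lower in that line. No basal, leukocyte, fibroblast, endothelial, adipocyte or neural marker passed limma's test, although 2 basal markers and 1 fibroblast marker had an unadjusted p under 0.05. Leukocyte markers summed to between 141 and 236 units, with Ptprc at 6.08 to 7.20 units and none at 0. Fibroblast markers summed to between 119 and 700 units, endothelial to between 88.0 and 128 units, neuronal and glial to between 55.4 and 118 units and adipocyte to between 16.5 and 24.1 units, with Adipoq under the floor on every array. Of these, Pdgfra was lower by more than 2-fold in both lines, with 1 of its 4 values under the floor, as was Snap25, with 2 of its 4 values under it. The part of these markers in the carrier results was not tested.

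Of the 66 carrier genes, 56 had enough signal to be tested, and 7 passed limma's test at an adjusted p under 0.05. Slc6a6 and Slc43a2 rose, and Slc1a4, Slc43a3, Slc6a14, Slc6a17 and Slc38a2 fell. The 2 that rose were 3.57% of the carriers tested, beside 4.76% of all 15070 genes tested, and the 5 that fell were 8.93%, beside 6.95%. Both shares lie near the background. The larger part, 49 genes, did not pass. The study's methods asked that a gene pass 2-fold in each line, and by that rule 3 carriers were lower (4.42% of all genes were) and none was higher (3.09% of all genes were). The 3 were Slc1a4, Slc43a3 and Slc6a14. Another 3 passed 2-fold upward in one line and downward in the other, beside 2.47% of all genes. These counts use the probe set with the highest mean. Probe sets 1437149_at and 1449751_at of Slc6a6 and 1434308_at of Slc43a2 passed 2-fold upward in both lines. Likewise, 1458394_at of Slc6a17 and 1440379_at of Slc1a5 passed 2-fold downward in both lines. In bulk RNA of this kind, a lower signal can come from fewer cells of a type or from less RNA in each cell, and these cannot be told apart.

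**Figure D1:**
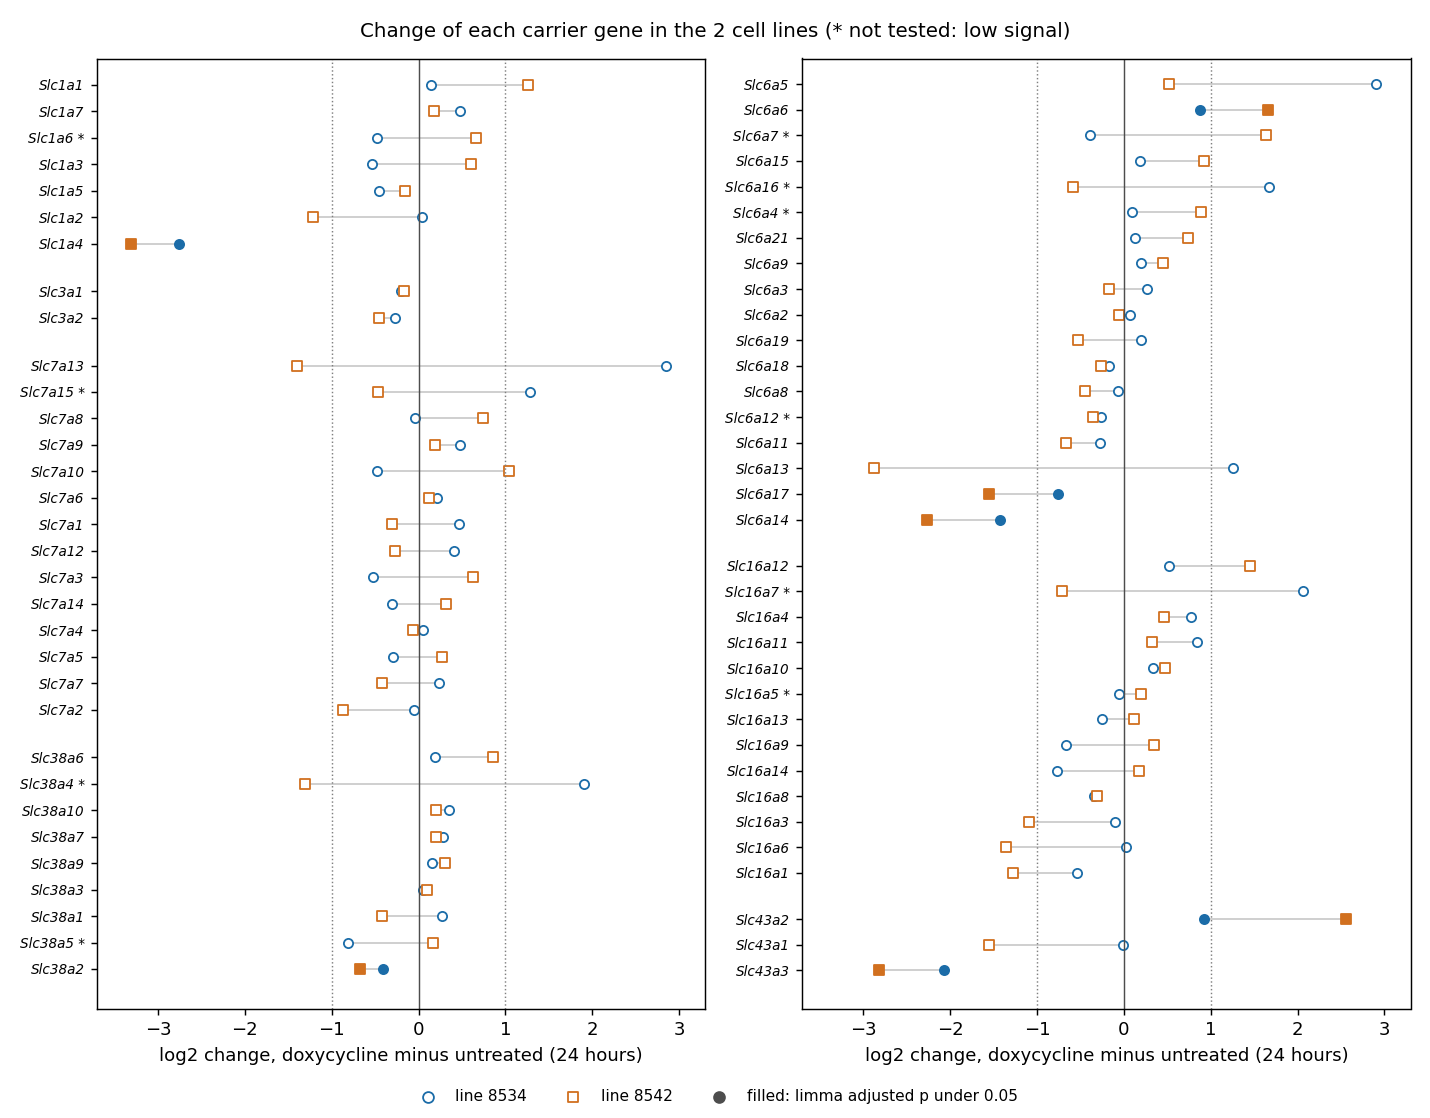
Change of each of the 66 carrier genes, as the log2 signal with doxycycline minus the untreated log2 signal, with 1 point for each line (circles 8534, squares 8542) and dotted lines at a 2-fold change. Filled points mark the 7 genes with a limma adjusted p under 0.05; the pairs of points of Slc1a4, Slc43a3 and Slc6a14 lie wholly past the dotted line on the left, and those of Slc6a13, Slc7a13 and Slc38a4 lie past both dotted lines.

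The promoters of the called genes are shown first, because each gives the bases just before the start of a gene whose RNA level differed with doxycycline. RefSeq's mouse table (GRCm38.p6) held a window for 46 of the 66 carrier genes and for 5 of the 7 called ones, namely Slc1a4, Slc6a14, Slc6a17, Slc38a2 and Slc43a2. Slc16a1, the lactate carrier, is added as an example of the 10 carriers whose window holds an E-box, the site of MYC and related factors. It was picked by hand, and the windows of the others are not printed. Capitals mark a match to 1 of 3 motifs searched on both strands: CACGTG (the E-box), TGATGNAA (the site of ATF4, the factor of the amino acid response) and GTGGGAA (the site of RBPJ, the DNA-binding partner of NOTCH). The runs lie at chr11:20332710-20332963 on the minus strand for Slc1a4, chrX:21714650-21714899 on the plus strand for Slc6a14, chr15:96699729-96699978 on the minus strand for Slc38a2, chr11:75531444-75531693 on the plus strand for the first listed start of Slc43a2, chr3:107500741-107500990 on the minus strand for an alternative start of Slc6a17, and chr3:104638414-104638663 on the plus strand for Slc16a1. Each is written 5′ to 3′ along the gene and ends at the start site, except that of Slc1a4, which goes on to the end of its motif.
Slc1a4: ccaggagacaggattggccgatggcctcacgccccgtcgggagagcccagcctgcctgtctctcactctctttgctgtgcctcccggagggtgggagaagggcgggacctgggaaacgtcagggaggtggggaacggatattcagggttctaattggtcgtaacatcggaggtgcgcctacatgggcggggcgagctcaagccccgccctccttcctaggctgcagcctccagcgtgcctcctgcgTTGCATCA
Slc6a14: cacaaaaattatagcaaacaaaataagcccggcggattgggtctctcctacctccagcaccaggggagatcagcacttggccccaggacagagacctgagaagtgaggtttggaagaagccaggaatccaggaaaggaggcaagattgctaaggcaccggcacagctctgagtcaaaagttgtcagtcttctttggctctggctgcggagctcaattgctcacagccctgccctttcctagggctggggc
Slc38a2: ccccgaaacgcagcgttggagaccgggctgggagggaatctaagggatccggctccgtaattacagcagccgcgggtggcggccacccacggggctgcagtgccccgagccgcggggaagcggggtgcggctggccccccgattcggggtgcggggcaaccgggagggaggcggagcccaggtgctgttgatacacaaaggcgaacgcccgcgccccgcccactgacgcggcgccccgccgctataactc
Slc43a2: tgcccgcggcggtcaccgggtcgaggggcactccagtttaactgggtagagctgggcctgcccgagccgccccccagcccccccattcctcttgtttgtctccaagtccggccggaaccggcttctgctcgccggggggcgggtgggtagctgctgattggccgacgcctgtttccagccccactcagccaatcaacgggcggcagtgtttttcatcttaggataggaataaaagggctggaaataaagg
Slc6a17: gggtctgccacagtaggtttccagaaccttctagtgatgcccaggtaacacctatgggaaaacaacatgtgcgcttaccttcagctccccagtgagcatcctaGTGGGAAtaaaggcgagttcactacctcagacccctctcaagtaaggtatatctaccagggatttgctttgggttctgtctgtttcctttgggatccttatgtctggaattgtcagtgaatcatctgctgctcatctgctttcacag
Slc16a1: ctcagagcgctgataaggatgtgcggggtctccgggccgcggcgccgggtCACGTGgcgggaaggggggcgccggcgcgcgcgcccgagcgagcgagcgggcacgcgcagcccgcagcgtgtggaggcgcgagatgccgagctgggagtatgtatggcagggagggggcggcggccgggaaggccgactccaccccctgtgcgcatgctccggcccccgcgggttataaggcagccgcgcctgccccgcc

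These windows share little beyond their place. Slc38a2 and Slc16a1 have the most G and C, 72.0% and 76.4%, with 30 and 37 CG dinucleotides. The window of Slc6a14 has 54.0% and 4, and that of the alternative start of Slc6a17 has 48.0% and 2. The window at the upstream start of Slc6a17 (chr3:107518019-107518268, not printed) holds none of the motifs. It has 62% G and C and 18 CG dinucleotides. The match of Slc1a4 to the ATF4 motif reads TTGCATCA along the gene, begins 4 bases before the start and runs across it. That motif was in the 300-base window of 3 of the 46 carriers (6.52%), Slc1a4, Slc6a21 and Slc7a7, beside 4.51% of all 27025 genes in the table. The RBPJ motif was in 5 of the 46 (10.9%), beside 7.25% of all genes; among the called genes only the alternative start of Slc6a17 holds it, 147 bases before the start. The E-box was in 10 of the 46 (21.7%), beside 8.09% of all genes, and none of these 10 was called by limma, 3 of them being too dim to test. In Slc16a1 it lies 200 bases before the start and in Slc43a1 64 bases before it. These are counts of letters in a short window, with no test, and say nothing of which factor binds there.

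Slc1a4 had the largest fall of all the carriers tested. It encodes ASCT1, a sodium-dependent exchanger of alanine, serine, cysteine and threonine. The signal of probe set 1423549_at went from 723 to 107 units in line 8534, against 575 to 58.1 units in line 8542. Both treated arrays therefore lay far below both untreated ones, 6.74-fold lower in the first line and 9.88-fold lower in the second. Over the lines the log2 change averaged -3.03 ± 0.39 (SD over 2 lines, as for all values after ±; limma adjusted p = 0.000304). Each of the other 2 probe sets of the gene was called as well, with log2 changes of -2.53 and -2.61 for 1423550_at and of -3.29 and -2.41 for 1456003_a_at in lines 8534 and 8542.

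The other SLC1 carriers did not pass. Slc1a5 encodes ASCT2, the closest relative of ASCT1 and a main route of glutamine into tumor cells. Its signal was 218 and 159 units without and with doxycycline in line 8534 and 133 and 120 units in line 8542, a mean log2 change of -0.30 ± 0.21 (limma adjusted p = 0.365). The treated values were the lower ones in each line, but untreated and treated arrays overlapped. A second, dimmer probe set, 1440379_at, had log2 changes of -1.96 and -1.24 (limma adjusted p = 0.0991), so that the size of the change in Slc1a5 depends on the probe set and neither passed. The glutamate carriers Slc1a1, Slc1a2 and Slc1a3 gave mean log2 changes of 0.71 ± 0.79, -0.59 ± 0.89 and 0.03 ± 0.81 (limma adjusted p = 0.405, 0.640 and 0.987). By the probe set with the highest mean, the spread between the lines was larger than the mean change in each of these 3 genes. The treated value of Slc1a2 in line 8542, 4.99 units, lay under the floor. Other tested probe sets, 1425415_a_at of Slc1a1 (0.48 and 0.29) and 1439940_at of Slc1a2 (-0.23 and -0.46), kept 1 sign without passing. In contrast, 1459014_at of Slc1a2 (1.13 and -0.14) and 1426340_at of Slc1a3 (0.20 and -0.63) had opposite signs.

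Slc43a3 and Slc43a2, members of one small family, moved in opposite directions. Slc43a3, named for its sequence but known as a carrier of purine nucleobases, has 1 probe set on the array, 1422788_at. Its signal went from 394 to 94.1 units (4.19-fold lower) in line 8534, against 498 to 70.7 units (7.04-fold lower) in line 8542, with no overlap between treated and untreated arrays. The mean log2 change was -2.44 ± 0.53 (limma adjusted p = 0.00107). Slc43a2 encodes LAT4, which lets branched-chain amino acids, phenylalanine and methionine down their gradient. The signal of 1439965_at went from 43.8 to 82.9 units in line 8534, against 50.4 to 296 units in line 8542. Both treated arrays were above both untreated ones, but the rise was 1.89-fold in the first line and 5.87-fold in the second. The mean log2 change was 1.74 ± 1.16 (limma adjusted p = 0.0280). A second probe set, 1434308_at, was nearly even between the lines, 1.34 and 1.43 on the log2 scale, and just missed the threshold (limma adjusted p = 0.0598), while the remaining one was too dim to test. Slc43a1, which encodes the related carrier LAT3, lies beside Slc43a3 on chromosome 2 in RefSeq's gene table, with 1 protein-coding gene, Rtn4rl2, between them. Its signal was 52.7 and 52.4 units in line 8534 and 50.7 and 17.3 units in line 8542 (mean log2 change -0.78 ± 1.09; limma adjusted p = 0.308), so that only the treated array of line 8542 was low.

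The SLC6 family held 3 of the 7 called carriers. Among its 14 genes tested, 7.14% were called higher and 14.3% lower, beside 4.76% and 6.95% of all genes tested. Slc6a6, the taurine carrier, rose. Its signal (1421346_a_at) went from 746 to 1367 units (1.83-fold higher) in line 8534, against 650 to 2055 units (3.16-fold higher) in line 8542. Untreated and treated arrays did not overlap, and the mean log2 change was 1.27 ± 0.56 (limma adjusted p = 0.00680). Among its 3 other probe sets, 1437149_at (log2 changes 1.19 and 2.34) and 1449751_at (1.20 and 2.02) were called too, and the dimmest, 1420148_at (0.32 and 2.34), was not (limma adjusted p = 0.182).

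Slc6a14 fell. It encodes ATB0,+, a carrier for neutral and cationic amino acids that couples uptake to sodium and chloride. Probe set 1420503_at went from 54.7 to 20.3 units in line 8534, against 152 to 31.5 units in line 8542. That is 2.70-fold lower in the first line and 4.83-fold lower in the second, and both treated arrays lay below both untreated ones. The mean log2 change was -1.85 ± 0.59 (limma adjusted p = 0.00971). The second probe set, 1420504_at, changed by -2.10 and -3.09 on the log2 scale and was also called.

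Slc6a17 fell less. It encodes NTT4, which loads neutral amino acids into synaptic vesicles in neurons. Probe set 1436137_at went from 96.8 to 57.2 units in line 8534, against 215 to 73.1 units in line 8542. The treated arrays were again below the untreated ones in both lines, by 1.69-fold and 2.94-fold, a mean log2 change of -1.16 ± 0.56 (limma adjusted p = 0.0276). Probe set 1458394_at was called too (log2 changes -1.07 and -3.14), whereas 1458441_at was not (-0.10 and -1.14; limma adjusted p = 0.369). Of the 3 neuronal and glial markers, Rbfox3 (log2 changes 1.36 and -0.15) and Gfap (1.01 and 0.17) did not pass. Snap25, too dim to test and with 2 of its 4 values under the floor, was lower in both lines (-1.56 and -2.01). The part of such cells in the result was not tested. Slc16a4, the carrier nearest to Slc6a17 on chromosome 3, had a mean log2 change of 0.62 ± 0.21 (limma adjusted p = 0.229).

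Creatine and glycine carriers of the family did not pass. Slc6a8, the creatine carrier, had 284 and 271 units without and with doxycycline in line 8534 and 401 and 294 units in line 8542 (mean log2 change -0.26 ± 0.27; limma adjusted p = 0.393). Slc6a9, the glycine carrier GlyT1, had 165 and 189 units in line 8534 and 130 and 178 units in line 8542 (0.32 ± 0.18; limma adjusted p = 0.318). Slc6a5, the second glycine carrier GlyT2, had the second largest mean increase of the carriers tested, 1.71 ± 1.68, but it rested on 2.83 and 21.1 units in line 8534, against 9.79 and 14.0 units in line 8542, and did not pass (limma adjusted p = 0.293). The untreated value of line 8534 lies under the floor.

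**Figure D2:**
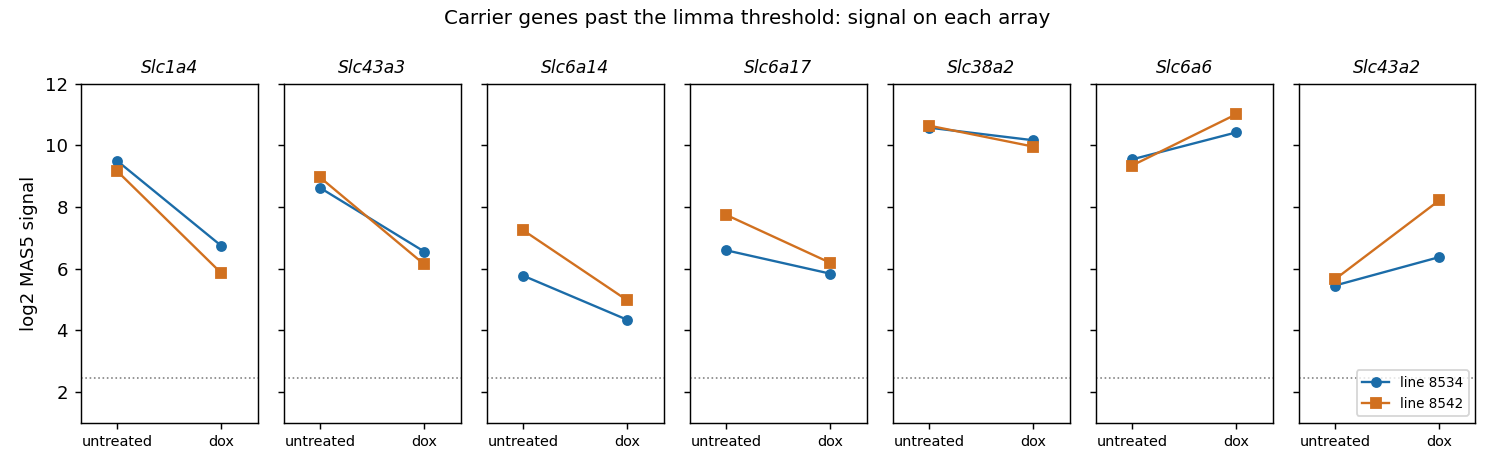
Log2 MAS5 signal of the 7 called carrier genes on each of the 4 arrays, with a line joining the untreated and the doxycycline (dox) array of each cell line and a dotted line at the floor of 2.47 (5.52 units). In every panel both treated values lie on the same side of both untreated values, and in Slc6a14, Slc6a17 and Slc43a2 the lines are farther apart than in the other panels on at least 1 side.

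Slc38a2 fell by a small and even amount. It encodes SNAT2, a sodium-coupled carrier of glutamine, alanine and other small neutral amino acids. Probe set 1426722_at went from 1523 to 1148 units in line 8534, against 1594 to 996 units in line 8542. The treated arrays were 1.33-fold and 1.60-fold lower, with no overlap, and the mean log2 change was -0.54 ± 0.19 (limma adjusted p = 0.0335). The gene's 2 other probe sets, 1429593_at (-0.26 and -0.62) and 1429594_at (0.22 and -0.56), were not called (limma adjusted p = 0.132 and 0.821), so that the call rests on the probe set with the highest mean.

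The neighbours of Slc38a2 on chromosome 15 are carriers of the same family, with no protein-coding gene between them. Slc38a1, which encodes the glutamine carrier SNAT1, had 351 and 425 units in line 8534 and 448 and 334 units in line 8542, a mean log2 change of -0.07 ± 0.49 (limma adjusted p = 0.868). Its second probe set, 1454764_s_at, was lower in both lines (-0.10 and -0.35) without passing (limma adjusted p = 0.419). Slc38a4, on the other side, was too dim to test. The lysosomal carrier Slc38a9, which reports arginine to mTORC1, had a mean log2 change of 0.23 ± 0.11 (limma adjusted p = 0.569). Slc38a6 and Slc38a10 were higher in both lines, by 0.52 ± 0.47 and 0.27 ± 0.10 on the log2 scale, without passing (limma adjusted p = 0.160 and 0.259). Of the 7 SLC38 genes tested, 5 were higher in both lines, and the only one that passed was lower.

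Limma called none of the 2 SLC3 heavy chains and 13 SLC7 carriers tested, of which only Slc3a2 had an unadjusted p under 0.05. Over all genes tested, 4.76% were called higher and 6.95% lower. Slc3a2 encodes 4F2hc, the heavy chain that carries LAT1 and its relatives to the membrane. Its signal was 1140 and 947 units without and with doxycycline in line 8534 and 1345 and 982 units in line 8542. The treated arrays were the lower ones, by 1.20-fold and 1.37-fold, and the mean log2 change of -0.36 ± 0.13 did not pass (limma adjusted p = 0.112). Slc7a5, which encodes the LAT1 chain that takes up leucine and other large neutral amino acids, had 180 and 147 units in line 8534 and 140 and 169 units in line 8542. It was lower with doxycycline in one line and higher in the other, with a mean log2 change of -0.01 ± 0.40 (limma adjusted p = 0.984). Slc7a8, which encodes LAT2, was near the floor in both lines, at 8.70 and 8.48 units and at 5.43 and 9.06 units (limma adjusted p = 0.866).

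The carriers of cationic amino acids gave a like picture. Slc7a1 (CAT1), a carrier of arginine and lysine, had 126 and 174 units in line 8534 and 149 and 120 units in line 8542 (mean log2 change 0.08 ± 0.54; limma adjusted p = 0.881). Slc7a2 (CAT2) had 267 and 258 units in line 8534 and 371 and 202 units in line 8542 (-0.46 ± 0.58; limma adjusted p = 0.249), so that the lower treated value was in line 8542. The exchangers Slc7a6 and Slc7a7, which swap cationic for neutral amino acids, had mean log2 changes of 0.16 ± 0.07 and -0.09 ± 0.46 (limma adjusted p = 0.657 and 0.898). A second probe set of Slc7a7, 1417392_a_at, was higher in both lines (0.60 and 1.08) without passing (limma adjusted p = 0.156). For Slc7a1, 1421533_at was lower in both lines (-0.59 and -0.50), and 1454992_at had opposite signs (0.55 and -0.69). By the probe set with the highest mean, the 2 lines had opposite signs in 10 of the 13 SLC7 genes tested (76.9%). The share was 32.4% of all genes tested and 37.5% of all carriers tested. Slc7a1, Slc7a4, Slc7a7 and Slc7a14 are among the 10, although another probe set of each had the same sign in both lines. That of Slc7a14 was too dim to test. Across these 13 genes the changes in the lines had a Pearson r of -0.76, beside 0.38 over the 56 carriers and 0.52 over all genes. The 13 include Slc7a13 (log2 changes 2.85 and -1.40), which had 1 array under the floor. These values of r describe genes within the same 4 arrays, and genes are not independent replicates. Whether the lines differ in these genes was not tested, since the design leaves no spread for it.

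None of the 11 SLC16 carriers tested passed in limma, beside 4.76% of all genes tested called higher and 6.95% lower. An unadjusted p under 0.05 was found for 2 of them, Slc16a1 and Slc16a11. Slc16a1 encodes MCT1, the proton-coupled carrier of lactate and pyruvate whose promoter is shown above. Its signal was 24.95 and 17.2 units in line 8534 and 48.3 and 19.9 units in line 8542. The treated arrays were the lower ones in both lines, by 1.45-fold and 2.43-fold, and did not overlap the untreated ones, but the mean log2 change of -0.91 ± 0.53 did not pass (limma adjusted p = 0.213). Slc16a3, the lactate exporter MCT4, had 41.0 and 38.2 units in line 8534 and 29.1 and 13.6 units in line 8542 (-0.60 ± 0.70; limma adjusted p = 0.419). Slc16a7, which encodes MCT2, was under the floor on all 4 arrays and has no usable fold. Of the 13 SLC16 genes 4 were higher in both lines and 3 were lower in both.

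**Figure D3:**
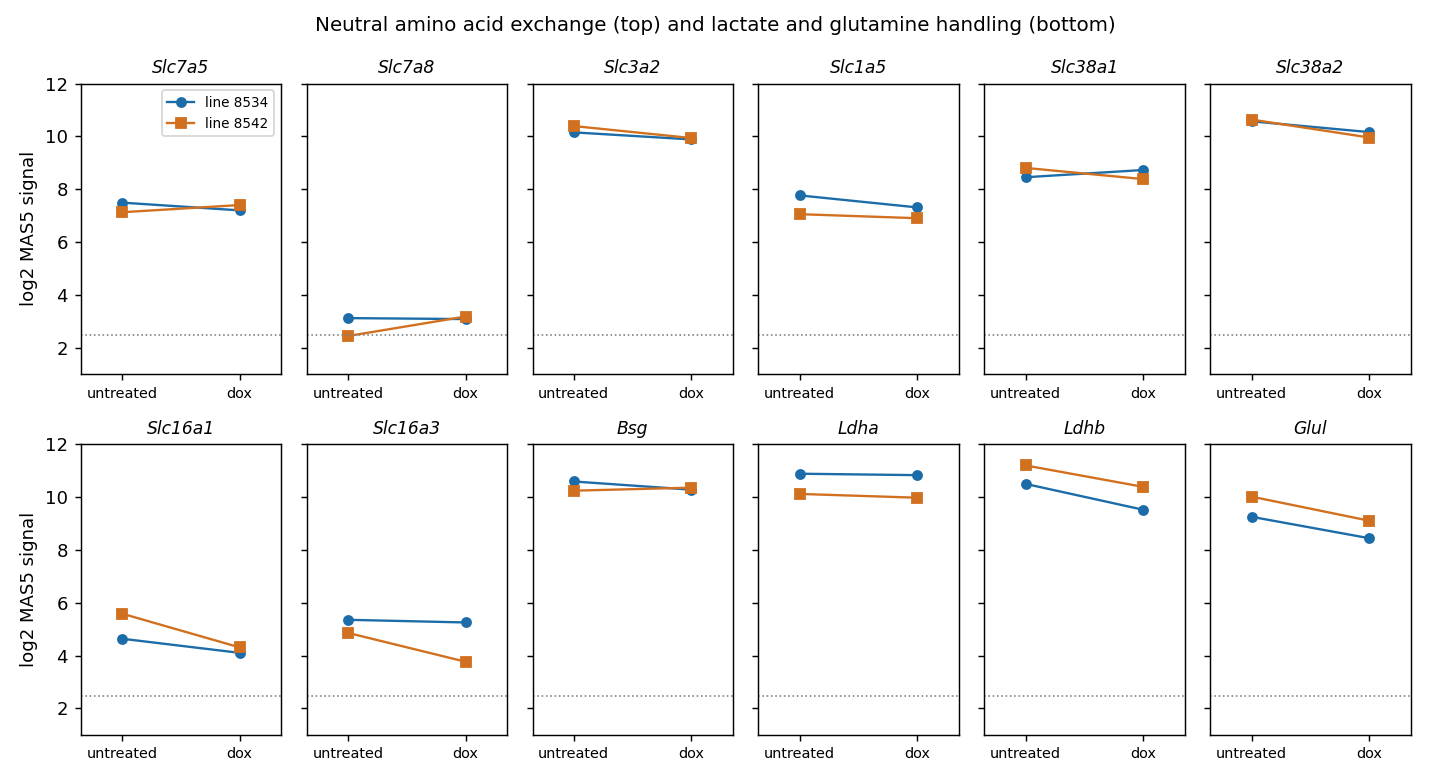
Log2 MAS5 signal on each of the 4 arrays for the neutral amino acid carriers (top row) and for lactate carriers, their chaperone Bsg and enzymes that use lactate and glutamine (bottom row), with a dotted line at the floor of 2.47. Slc7a5, Slc7a8, Slc38a1 and Bsg cross between the lines. Slc3a2, Slc1a5, Slc38a2, Slc16a1, Slc16a3, Ldhb and Glul have the treated value below the untreated one in each line. The values of Ldha are nearly level within each line.

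A list of partner proteins and further carriers held no call either. In it only Bsg and Emb are partner proteins, and the others on the array are carriers of SLC5, SLC15, SLC25 and SLC36. Of 12 genes listed, 11 were on the array and 10 were tested. Limma called none of them, and 2 had an unadjusted p under 0.05 (of all genes tested, 4.76% were called higher and 6.95% lower). Bsg, the chaperone that brings MCT1 and MCT4 to the membrane, had 1547 and 1248 units in line 8534 and 1215 and 1316 units in line 8542 (limma adjusted p = 0.743). Slc5a8, a sodium-coupled carrier of lactate and short-chain fatty acids, had log2 changes of 0.15 and 1.38 (limma adjusted p = 0.128).

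Among 20 enzymes tested that use the cargo, 4 were called, 2 in each direction (of all genes tested, 4.76% were called higher and 6.95% lower). Glul, which makes glutamine from glutamate and ammonia, fell from 612 to 349 units in line 8534, against 1040 to 552 units in line 8542 (mean log2 change -0.86 ± 0.07; limma adjusted p = 0.00627). Ldhb, the lactate dehydrogenase chain known for turning lactate to pyruvate, fell from 1451 to 736 units and from 2357 to 1343 units in the same order (-0.90 ± 0.12; limma adjusted p = 0.00387). In both genes the treated value was well below the untreated one of its own line and the lines responded alike, while Ldha, the other main chain, had a mean log2 change of -0.10 ± 0.06 (limma adjusted p = 0.669). Ckb, the brain-type creatine kinase, rose from 97.9 to 221 units in line 8534, against 69.2 to 217 units in line 8542 (1.41 ± 0.33; limma adjusted p = 0.00528). Arg1, which splits arginine to ornithine and urea, rose from 26.3 to 117 units in line 8534, against 0.893 to 94.7 units in line 8542 (limma adjusted p = 0.0289); the untreated value of line 8542 lies under the floor, so that no fold is given for that line. The carriers of the cargo of Ckb and Arg1, Slc6a8 and Slc7a1, did not pass.

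Of 21 genes tested for amino acid sensing at mTORC1, 1 was called (4.76% of all genes tested were called higher and 6.95% lower). Rragc, a GTPase that recruits mTORC1 to the lysosome, rose from 451 to 670 units in line 8534, against 422 to 589 units in line 8542 (mean log2 change 0.53 ± 0.06; limma adjusted p = 0.0437). Sesn2, the leucine sensor, was higher in both lines by 0.68 ± 0.03 and just missed the threshold (limma adjusted p = 0.0531). Atf4 itself had a mean log2 change of -0.11 ± 0.20 (limma adjusted p = 0.679). The median mean log2 change was 0.05 over the 66 carriers and 0.02 over the list of partner proteins and further carriers. It was -0.10 over the enzymes, 0.07 over the sensing genes and 0.02 over all genes.

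Of the 56 carriers tested, 39 (69.6%) differed by less than 2-fold in each line, beside 77.0% of all genes tested. Of the other carriers, 11 passed 2-fold in line 8542 alone and 1, Slc6a5, in line 8534 alone. Over all genes tested the numbers past 2-fold in a single line were 1318 for line 8542 and 1032 for line 8534. Of the 66 carriers, 20 were higher in both lines, 17 were lower in both and 29 had opposite signs. The median change was 0.06 in line 8534 and 0.02 in line 8542. Of the 66 carriers, 18 had at least 1 array under the floor and 8 were under it on all 4 arrays. The 10 carriers too dim to test were Slc1a6, Slc6a4, Slc6a7, Slc6a12, Slc6a16, Slc7a15, Slc16a5, Slc16a7, Slc38a4 and Slc38a5.

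The 3 carriers that passed 2-fold in both directions all had low signals. Slc6a13, the GABA and taurine carrier GAT2, had 5.68 and 13.6 units without and with doxycycline in line 8534 and 28.7 and 3.92 units in line 8542 (limma adjusted p = 0.727). Slc7a13, an amino acid carrier known from the kidney, had 5.03 and 36.2 units in line 8534 and 24.4 and 9.29 units in line 8542 (limma adjusted p = 0.729). Its second probe set, 1431740_at, had log2 changes of -0.86 and 0.06 and so the reverse order. Slc38a4 had 0.732 and 2.73 units in line 8534 and 7.24 and 2.93 units in line 8542 and was not tested. With values raised to the floor, the folds were 2.38 and 5.19 for Slc6a13, 6.56 and 2.63 for Slc7a13, and 1.00 and 1.31 for Slc38a4 in lines 8534 and 8542, so that Slc38a4 no longer passed 2-fold in either line.

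**Figure D4:**
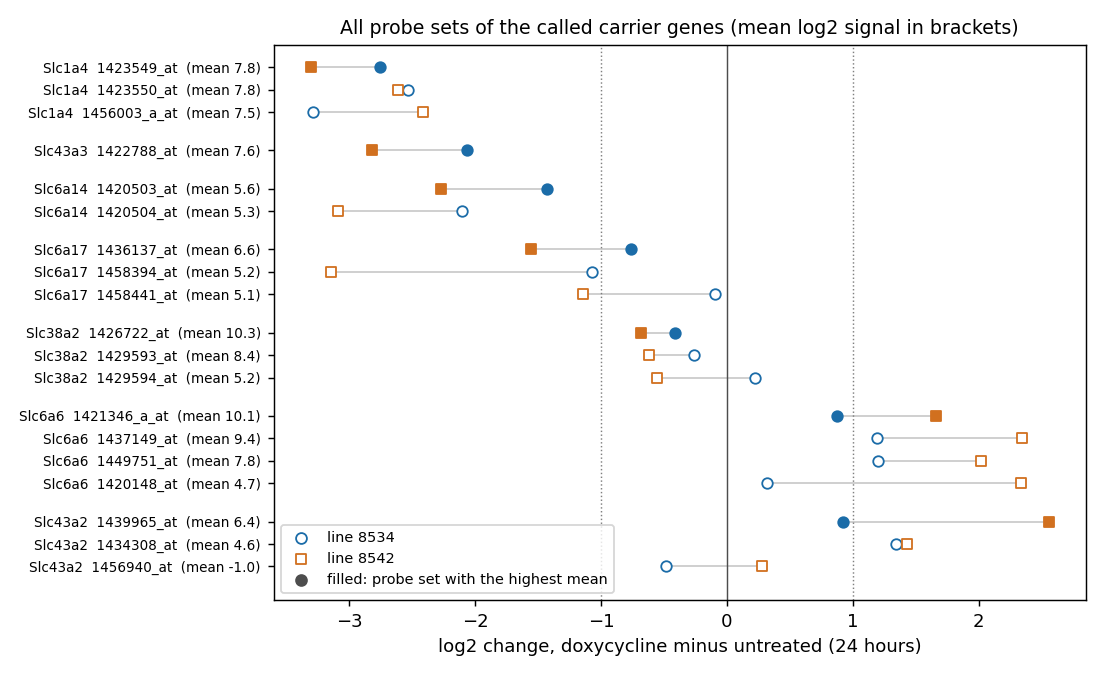
Log2 change in each line (circles 8534, squares 8542) for every probe set of the 7 called carrier genes, with the mean log2 signal in brackets, dotted lines at a 2-fold change and filled points for the probe set that stands for the gene. All 3 probe sets of Slc1a4 and both of Slc6a14 lie past 2-fold on the left in both lines, and the dimmest probe sets of Slc38a2 and Slc43a2 cross 0.

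Where a gene had more than 1 probe set, the others did not always follow. There were 69 other probe sets over 36 genes, 41 of them tested, and 29 of these 41 had a mean change of the same sign as the probe set used.

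All 7 calls rest on the pairing of arrays by line and on the sharing of spread between probe sets of similar signal. Without the line as a block, or without the intensity trend, limma called none of the 56 carriers, although 7 had an unadjusted p under 0.05 in each of those fits; the lowest adjusted p values among carriers were then 0.0535 (Slc43a3) and 0.223. The loss was general, since over all probe sets tested limma called 9 higher and 83 lower without the block, and 0 in either direction without the trend.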

How the data were processed

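RNA from untreated and doxycycline-treated cells of lines 8534 and 8542 was hybridized to Affymetrix mouse arrays. The authors ran MAS5 on the scans and deposited log2 signals, 1 value for each probe set and array; no MAS5 version or scaling target is named in the sources used here. Base 2 was inferred from the size of the values. Control probe sets (64) were left out, which left 45037. Of these, 34945 had 1 gene symbol in GEO's platform annotation, 932 had several and 9160 had none; only the first were named. Each gene was represented by the probe set with the highest mean.

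Changes were doxycycline minus untreated within each line. A limma model (3.58.1, R 4.3.3) with terms for line and treatment and an intensity trend was fitted to the 33778 probe sets with a mean log2 signal at or above 2.94, the 25th percentile, with Benjamini-Hochberg adjustment over all of them. It had 1 residual and 6.18 prior degrees of freedom. Line is the block, since each pair of arrays shares a cell line; deviations from the condition means correlated within lines (r = 0.36 across tested probe sets). An exact test over 2 lines cannot give p under 0.5, so none is reported. Nothing tells separate cultures from technical spread beyond the lines. The fit was also run on simulated arrays in which both lines had the same known change, and the median estimates were checked against it. Lines that respond differently were not simulated.

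The carriers, the lists and the motifs were chosen with earlier results of these data known. Named carriers were those called or past 2-fold in both lines, the 10 with the highest mean, the 3 with the largest change each way, and a list of well-known carriers. Promoter windows of 300 bases, 250 before and 50 after the start, came from RefSeq (GRCm38.p6) and were searched in Python 3.11.15. Alternatives were the filter, a floor or pseudocount at 5.52 units, quantile normalization, median centring, the mean of probe sets, no trend, no block, and leaving out arrays or lines.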

Additional observations from a re-analysis of the deposited data

Results flagged for a closer look

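In 3 carriers the lines moved in opposite directions, each by more than 2-fold: the change in line 8542 minus that in line 8534 was -4.24 on the log2 scale for Slc7a13, -4.12 for Slc6a13 and -3.21 for Slc38a4. With 1 array per line and condition the difference between the lines was not tested. Each gene had at least 1 array under the floor of 5.52 units, and Slc38a4 had 3. Such opposite moves were seen in 450 of 18193 genes (2.47%).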

How the results depend on the processing

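The 7 calls were kept with a filter at the 50th percentile, the floor, the pseudocount and median centring, and 6 with quantile normalization (Slc38a2 lost, limma adjusted p = 0.0562). Without a filter, and with the mean of probe sets, limma called 1 higher (Slc6a6) and 3 lower (Slc1a4, Slc43a3, Slc6a14), losing Slc6a17, Slc38a2 and Slc43a2. Without the intensity trend, and with no replicate block (the pairing by line), it called 0 in each direction, with 7 carriers at an unadjusted p under 0.05 each time. Over all probe sets tested it then called 0 higher and 0 lower without the trend, and 9 and 83 without the block. Leaving out each array in turn, in a fit without the block where the lone array is assumed to vary like the others, gave 0 to 0 higher and 0 to 2 lower; the 2 were Slc1a4 and Slc43a3, without the treated array of line 8534, and 4 to 8 carriers had an unadjusted p under 0.05. These fits called 0 to 5 higher and 0 to 252 lower over all probe sets. Leaving out a line left the 2-fold rule in the other line alone, with 6 higher and 12 lower without line 8534 and 7 higher and 3 lower without line 8542. The median change over the carriers was 0 with the floor, 0.003 with the pseudocount, and 0.0197 to 0.0555 without one line. No named carrier reversed its direction while called. Of the 66 carriers, 18 had an array under the floor of 5.52 units, where a ratio is uncertain, and with 1 array per line and condition array noise cannot be told apart from the spread between lines.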
